A study of Mus musculus with 12 samples.

Results

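The genes described here are 33 mouse genes that regulate or carry out the synthesis of cholesterol and of fatty acids. They were chosen by name, as 6 genes of the sterol regulatory element-binding protein (SREBP) system and sterol transport, 8 of the mevalonate and isoprenoid steps, 11 of the steps from squalene formation to cholesterol, and 8 of fatty acid synthesis and desaturation. Earlier results of these data were known when they were chosen. Probes were found for 32 of the 33, and all 32 were tested. *Idi1*, which encodes an isopentenyl diphosphate isomerase, had no matched probe and is not analysed here. The 32 genes had 53 probes, of which 50 were tested, among 12647 tested genes of the series.

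The samples were kidneys taken at embryonic day 14.5 from BdkrB2 null and BdkrB2 WT progeny of heterozygous parents. *Bdkrb2* encodes the bradykinin B2 receptor. The mothers ate food with 5% sodium, and the genetic background was C57BL/6, so both groups shared the salt and the background. Null and WT RNA were hybridised against each other on 12 two-colour arrays, in 3 replicates with null RNA in Cy5 (null/WT) and 3 with the dyes exchanged (WT/null), each on 2 arrays. The labels do not say whether a sample held 1 embryo or several, nor how the null allele was made.

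Cells make cholesterol from acetyl-CoA through mevalonate, isoprenoid units, squalene and lanosterol. The transcription factor SREBP-2 drives most genes of that route and SREBP-1 those of fatty acid synthesis. SCAP carries both precursors out of the endoplasmic reticulum when sterols are low, and the INSIG proteins hold SCAP back when sterols are high. In embryonic tissue the route supplies new membrane and the cholesterol that is joined to hedgehog ligands.

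The promoters of *Lss* and *Cyp51* are shown because these genes had the smallest p-values among the members by the brightest probes. That of *Hmgcs1* is shown because it held the sterol regulatory element letters. They are RefSeq reference sequences of build GRCm38.p6, read 5′ to 3′ from 250 bases before the transcription start to 50 after it. They lie at chr10:76531355-76531654 on the + strand (*Lss*), chr5:4104648-4104947 on the - strand (*Cyp51*) and chr13:119690101-119690400 on the + strand (*Hmgcs1*). Capitals mark the sterol regulatory element letters TCACNCCAC and the CCAAT box, found on either strand, so that ATTGG is a CCAAT box on the opposite strand.
Lss: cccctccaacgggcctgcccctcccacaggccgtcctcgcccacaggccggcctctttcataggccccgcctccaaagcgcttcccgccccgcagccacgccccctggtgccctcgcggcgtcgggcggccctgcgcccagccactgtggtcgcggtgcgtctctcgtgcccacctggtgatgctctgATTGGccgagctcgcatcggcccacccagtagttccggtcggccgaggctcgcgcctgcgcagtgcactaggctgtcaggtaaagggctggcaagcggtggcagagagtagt
Cyp51: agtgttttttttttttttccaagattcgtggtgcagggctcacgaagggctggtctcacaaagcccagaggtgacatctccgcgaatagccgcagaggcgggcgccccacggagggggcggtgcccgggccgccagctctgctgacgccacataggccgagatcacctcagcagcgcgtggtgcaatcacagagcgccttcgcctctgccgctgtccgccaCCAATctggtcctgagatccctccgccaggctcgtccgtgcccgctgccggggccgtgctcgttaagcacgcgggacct
Hmgcs1: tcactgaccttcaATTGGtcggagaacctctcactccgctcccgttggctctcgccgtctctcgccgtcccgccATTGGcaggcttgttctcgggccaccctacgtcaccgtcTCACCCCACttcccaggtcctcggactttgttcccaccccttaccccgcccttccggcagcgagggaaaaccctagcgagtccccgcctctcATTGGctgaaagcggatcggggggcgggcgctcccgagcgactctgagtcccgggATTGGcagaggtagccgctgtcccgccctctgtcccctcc

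Promoters were found for 26 of the 33 genes (34 promoters) and compared with all 32817 promoters of the same length. TCACNCCAC, a form of the element that SREBP proteins bind, occurred in 1 member promoter, that of *Hmgcs1*, at -137 to -129 from the start (2.94%, against 1.24% of all promoters). The CCAAT box, bound by NF-Y, occurred in 22 member promoters (64.7%, against 37.4%). The GC box GGGCGG, bound by Sp1, occurred in 25 (73.5%, against 35.6%). The E-box CACGTG, which SREBP-1 can also bind, occurred in 6 (17.6%, against 7.15%), in the promoters of *Scap*, *Insig1*, *Hsd17b7*, *Sc5d* and *Dhcr7*. The *Scap* promoters overlap and share 1 E-box, so the letters occurred in 5 of 26 genes, while the CCAAT box and the GC box each occurred in 21 of 26. Both strands were searched and none of these motifs contains another. These matches describe the letters only, and binding was not measured.

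Transcripts of the synthesis genes were readily measured in these kidneys: 30 of the 32 were well above background in all 12 null and all 12 WT channels, and 0 had a saturated channel. The other two, *Acat2* and *Acaca*, were above background in 11 null and 12 WT channels. The 2 arrays of a replicate differed by a median of 0.0418 on the log2 scale over the members (0.0519 over all tested genes). The SD of the 6 replicate values had a median of 0.171 over the members. This is a different measure, which spans both dye orientations and so includes dye effects.

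Between 41.2% and 59.0% of Cy3 spots and between 51.1% and 60.0% of Cy5 spots were well above background, and both extremes on the low side belonged to the first array of WT/null replicate 3. The single *Bdkrb2* probe had signal above background in 1 of the 12 WT channels and 0 null channels, too little to check the labels. Of 9 kidney markers, 7 were above background in every channel, while *Ret*, the receptor of the ureteric bud, was so in 0 null and 1 WT channels. Each slide of 4 arrays held 1 replicate number in both orientations, so slides 1, 2 and 3 are replicates 1, 2 and 3. *Xist*, a transcript of female cells, was above background in all 4 channels of each genotype on slide 1, and in 4 null and 0 WT channels on each of slides 2 and 3. The Y-linked *Ddx3y* and *Eif2s3y* were above background in 0 null and 4 WT channels on each of slides 2 and 3 and in 0 channels on slide 1, and the labels state no sex for the embryos. By these transcripts null RNA looked female and WT RNA male on slides 2 and 3, and only slide 1 was alike in both genotypes. On slides 2 and 3 genotype and this sex difference cannot be told apart, which holds for every member, the X-linked *Nsdhl* and *Ebp* included. Marker sums (null over WT, log2, slides 1, 2 and 3) gave 0.09, 0.40 and 1.92 for skeletal muscle, 0.13, 0.46 and 1.13 for proximal tubule, and 0.00, 0.08 and 0.23 for leukocytes. Every channel was above background for 3 of 7, 3 of 6 and 5 of 5 of these genes, and none was below it throughout. Their summed intensities ranged from 850 to 4096 in null and 827 to 1044 in WT for muscle, from 1467 to 6261 and 1398 to 5099 for proximal tubule, and from 2502 to 3615 and 2388 to 3420 for leukocytes. On slide 1, 4 of 5 tested proximal tubule markers were lower (median -0.04), while *Lrp2* stood at 0.30. The sums gave -0.03, -0.01 and -0.10 for kidney, and 0.07, -0.15 and -0.03 for neural markers. The kidney sum hides opposite values on slide 3. There 6 of 8 tested kidney markers were lower, among them *Wnt11* (-0.31), *Six2* (-0.24) and *Cited1* (-0.19), while *Nphs1* stood at 0.46. In bulk kidneys, fewer cells of a type and less RNA per cell cannot be told apart.

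None of the tested synthesis genes passed the threshold between the genotypes. Of 32 tested genes, 0 had a limma adjusted p under 0.05 (0.0237% of all tested genes did). The smallest adjusted p was 0.601. Values lay close to 0, and by the brightest probes 25 of 32 genes were lower in null and 7 higher. But when arrays were centred on their medians instead of by loess, 1 of 32 was below 0. Under that centring 22 were below the all-gene median, which then lay at 0.16. The members' median log2 null over WT was -0.05, beside -0.00 over all tested genes, of which 51.9% were lower. These counts are a description and carry no test.

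At an unadjusted p under 0.05 by the brightest probes, 2 members were lower, *Lss* and *Cyp51* (6.25%, against 2.59% of all tested genes in that direction). By these probes 0 were higher (5.19% of all tested genes were). The dimmer *Stard4* probe A_51_P105445 was higher at an unadjusted limma p of 0.0208. The count of lower members was 0 without slide 1, 6 without slide 2 and 4 without slide 3. It was 1 without either orientation of replicate 1, 5 without WT/null replicate 2, 4 without null/WT replicate 2 and 5 without WT/null replicate 3. With the replicate numbers as a block, which tests 3 pair means, the count was 1, *Lss*, beside 442 of 12647 tested genes in either direction. No share of all tested genes was computed for the fits with a replicate or slide left out, so those counts have no background beside them. Lower values in all 6 replicates occurred in 1 member, *Msmo1* (1.38% of all tested genes).

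**Figure D1:**
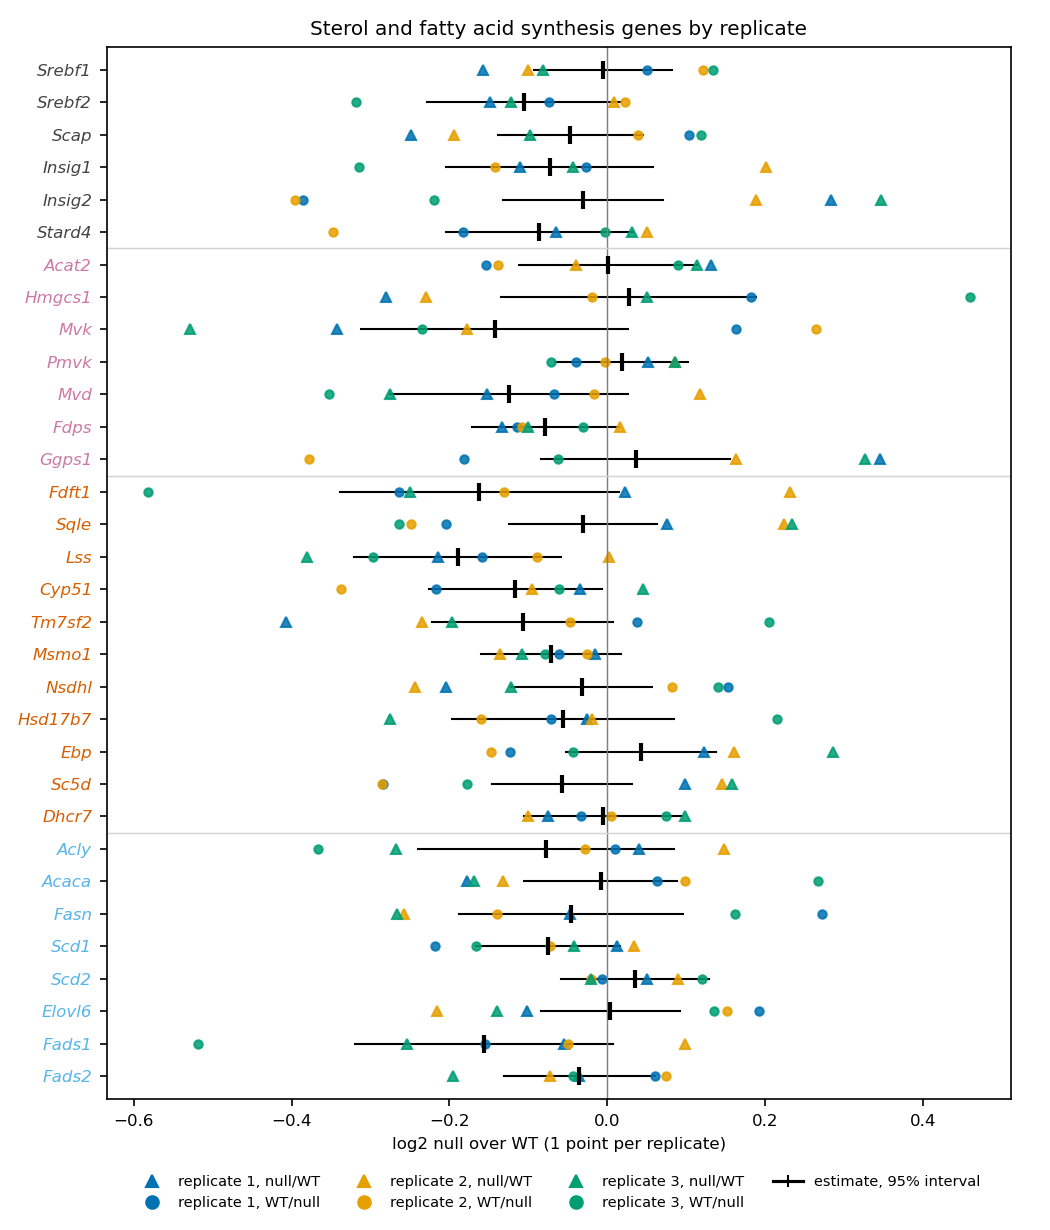
Log2 null over WT of the 32 tested synthesis genes (x axis), 1 gene per line grouped by role, with 1 point per replicate (triangles null/WT, circles WT/null, colour by replicate number) and the estimate with its 95% interval. The replicate values of most genes lie on both sides of 0; 25 of 32 estimates lie below 0, while under median centring 1 of 32 does and 22 of 32 lie below the all-gene median.

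Under loess normalization, the fit gave an interval for the size of each difference. These intervals are too narrow in general, because replicates of the same number were not independent. They do not cover the choice of normalization: median centring moved the members' median from -0.05 to 0.12. Nor do they separate genotype from the *Xist* and Y-linked difference on slides 2 and 3. The 95% interval of null over WT by the brightest probe lay within 1.3-fold in either direction for all 32 tested members, and for 31 of 32 with the replicate block. The widest bound of these probes was that of *Fdft1*, at a log2 size of 0.34 (0.38 with the block). Among the other probes, the *Stard4* probe A_51_P105445 reached further, with an interval from 0.08 to 0.69 on the log2 scale.

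Among the regulators, all 6 had a value just below 0 by the brightest probes (median -0.06), and 5 of 6 lay below the all-gene median under median centring. By slide, 6, 3 and 2 of 6 were lower on slides 1, 2 and 3, with medians of -0.07, -0.03 and 0.01, and 0 were lower on all 3. None passed the limma threshold. Other tested probes lay below 0 for *Insig1* and *Insig2* and above 0 for *Srebf2* and *Stard4*. *Srebf2* (chromosome 15), which encodes SREBP-2, gave -0.07, 0.02 and -0.32 on WT/null replicates 1, 2 and 3 and -0.15, 0.01 and -0.12 on null/WT replicates 1, 2 and 3 (log2 null over WT). Both values of replicate 2 lay near 0 and the other 4 below it, and the null and WT levels overlapped. The estimate was -0.11 ± 0.05 (SE, n = 6, limma adjusted p = 0.710). A second, dimmer *Srebf2* probe, above background in 6 null and 4 WT channels, stood at 0.02.

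*Srebf1* (chromosome 11), which encodes SREBP-1, gave 0.05, 0.12 and 0.13 on WT/null replicates 1, 2 and 3 and -0.16, -0.10 and -0.08 on null/WT replicates 1, 2 and 3. The sign followed the dye orientation and the estimate was -0.01 ± 0.04 (SE, n = 6, limma adjusted p = 0.969). *Scap* (chromosome 9), which encodes the escort protein of both factors, gave 0.10, 0.04 and 0.12 on WT/null and -0.25, -0.19 and -0.10 on null/WT replicates. It was split by orientation in the same way, with an estimate of -0.05 ± 0.04 (SE, n = 6, limma adjusted p = 0.741).

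*Insig1* (chromosome 5), an SREBP target that encodes an anchor of SCAP, gave -0.03, -0.14 and -0.31 on WT/null replicates 1, 2 and 3 and -0.11, 0.20 and -0.04 on null/WT replicates 1, 2 and 3. It was lower in 5 of 6 replicates, and null/WT replicate 2 stood alone above 0. The estimate was -0.07 ± 0.06 (SE, n = 6, limma adjusted p = 0.734), and its other probe stood at -0.12. *Insig2* (chromosome 1), which encodes the related anchor, gave -0.39, -0.40 and -0.22 on WT/null and 0.28, 0.19 and 0.35 on null/WT replicates. These were the widest orientation differences of the regulators, and the estimate was -0.03 ± 0.04 (SE, n = 6, limma adjusted p = 0.822).

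*Stard4*, which encodes a carrier of sterols between membranes, had 3 tested probes that did not share a direction. Its brightest probe stood at -0.09 and another at 0.01. The probe A_51_P105445 stood at 0.38 ± 0.13 (SE, n = 6, unadjusted p = 0.0208, limma adjusted p = 0.648), with -0.10, 0.48 and 0.76 on slides 1, 2 and 3. Its unadjusted limma p was 0.0402 with the replicate block. No direction is given for this gene.

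Enzymes of the mevalonate and isoprenoid steps showed no common direction. Of 7 tested genes, 3 were lower and 4 higher, with a median of 0.00, and with the scanner's processed signals or the authors' values 4 were lower and the median was -0.10. *Hmgcs1*, which encodes the synthase that makes HMG-CoA, stood at 0.03 ± 0.07, with -0.05, -0.12 and 0.25 on slides 1, 2 and 3. It was the highest member on slide 3. *Mvk*, which encodes mevalonate kinase, stood at -0.14 ± 0.07, with -0.09, 0.04 and -0.38 on the slides, and its second probe gave -0.14. *Mvd*, which encodes the decarboxylase that forms isopentenyl diphosphate, stood at -0.12 ± 0.07, with -0.11, 0.05 and -0.31. Slide 3 thus held both the lowest values of *Mvk* and *Mvd* and the highest of *Hmgcs1*. *Fdps*, which encodes farnesyl diphosphate synthase, stood at -0.08 ± 0.04 and was lower in 5 of 6 replicates. The acetoacetyl-CoA thiolase gene *Acat2* (0.00), the phosphomevalonate kinase gene *Pmvk* (0.02) and the geranylgeranyl diphosphate synthase gene *Ggps1* (0.04) lay at or just above 0.

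Among the enzymes from squalene formation to cholesterol, *Lss* and *Fdft1* had the lowest values of all members by the brightest probes. Of 11 tested genes, 10 were lower and 1 higher (median -0.06), and 8 of 11 lay below the all-gene median under median centring. *Lss* (chromosome 10), which encodes lanosterol synthase, gave -0.16, -0.09 and -0.30 on WT/null replicates 1, 2 and 3 and -0.21, 0.00 and -0.38 on null/WT replicates 1, 2 and 3. It was lower in 5 of 6 replicates, with null/WT replicate 2 at 0, and both orientations gave similar means (-0.18 and -0.20). The log2 level was 7.92 ± 0.13 in null and 8.11 ± 0.24 in WT (SD, n = 6 each), so levels overlapped between genotypes. The estimate was -0.19 ± 0.06 (SE, n = 6, unadjusted p = 0.0103, limma adjusted p = 0.601). This is a 12.3% lower level in null, and a second probe gave -0.14.

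*Cyp51* (chromosome 5), which encodes the lanosterol demethylase, gave -0.22, -0.34 and -0.06 on WT/null replicates 1, 2 and 3 and -0.03, -0.09 and 0.04 on null/WT replicates 1, 2 and 3. It was lower in 5 of 6 replicates, most so on slide 2. The estimate was -0.12 ± 0.05 (SE, n = 6, unadjusted p = 0.0393, limma adjusted p = 0.700), while its other probes gave -0.03 and -0.04.

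*Fdft1* (chromosome 14), which encodes squalene synthase, gave -0.26, -0.13 and -0.58 on WT/null replicates 1, 2 and 3 and 0.02, 0.23 and -0.25 on null/WT replicates 1, 2 and 3. WT/null replicate 3 was the lowest replicate value among the brightest probes of all 32 members, and null/WT replicates 1 and 2 were above 0. The estimate was -0.16 ± 0.08 (SE, n = 6, limma adjusted p = 0.710). *Tm7sf2* (chromosome 19), which encodes a sterol reductase, gave 0.04, -0.05 and 0.20 on WT/null and -0.41, -0.23 and -0.20 on null/WT replicates. All null/WT values lay below all WT/null values, and the estimate was -0.11 ± 0.05 (SE, n = 6, limma adjusted p = 0.710).

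The remaining enzymes of the sterol route lay between -0.07 and 0.04. *Msmo1*, which encodes the sterol methyl oxidase, stood at -0.07 ± 0.04 with replicate values from -0.14 to -0.02. *Sqle*, which encodes squalene epoxidase, stood at -0.03, the sterol dehydrogenase gene *Nsdhl* at -0.03, *Hsd17b7* at -0.06, the sterol desaturase gene *Sc5d* at -0.06 and *Dhcr7*, whose product acts late in the route, at -0.01. *Ebp*, which encodes a sterol isomerase, was the 1 gene of the group above 0, at 0.04.

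Fatty acid enzymes were lower in 6 of 8 genes (median -0.04), and 5 of 8 lay below the all-gene median under median centring. By slide, 3, 4 and 6 of 8 were lower on slides 1, 2 and 3, with medians of 0.02, -0.01 and -0.08. *Fads1* (chromosome 19), which encodes the delta-5 desaturase, gave -0.15, -0.05 and -0.52 on WT/null replicates 1, 2 and 3 and -0.06, 0.10 and -0.25 on null/WT replicates 1, 2 and 3. It was lower in 5 of 6 replicates, most so on slide 3. The estimate was -0.16 ± 0.07 (SE, n = 6, limma adjusted p = 0.710). Its partner *Fads2*, which encodes the delta-6 desaturase, stood at -0.04 ± 0.04.

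*Acly*, whose product makes cytosolic acetyl-CoA from citrate, stood at -0.08 ± 0.07, with 0.02, 0.06 and -0.32 on slides 1, 2 and 3. *Acaca*, which encodes acetyl-CoA carboxylase, stood at -0.01. *Fasn*, the fatty acid synthase gene, stood at -0.05 by its brightest probe and 0.04 by the other, so no direction is given for it. *Scd1* and *Scd2*, which encode stearoyl-CoA desaturases, stood at -0.08 and 0.04, and the elongase gene *Elovl6* at 0.00. More than 1 probe was tested for 15 members, and the signs disagreed in 3 of them (*Srebf2*, *Stard4* and *Fasn*).

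The slides differed in how far the members spread. The interquartile range over members was 0.098, 0.107 and 0.166 on slides 1, 2 and 3, beside 0.101, 0.105 and 0.221 over all tested genes. The members' medians on the slides were -0.06, -0.04 and -0.01. *Lss* was the lowest member on slide 1 (-0.19), *Cyp51* on slide 2 (-0.22) and *Fdft1* on slide 3 (-0.42). In 8 members (25%) the value was below 0 on all 3 slides, against 13.1% of all tested genes, and in 2 members (6.25%) it was above 0 on all 3, against 12.5%. The marker sums of skeletal muscle, proximal tubule, leukocytes, liver and adipocytes were also furthest from 0 on slide 3, though single markers of a list differed, and their part in the members' values was not tested.

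**Figure D2:**
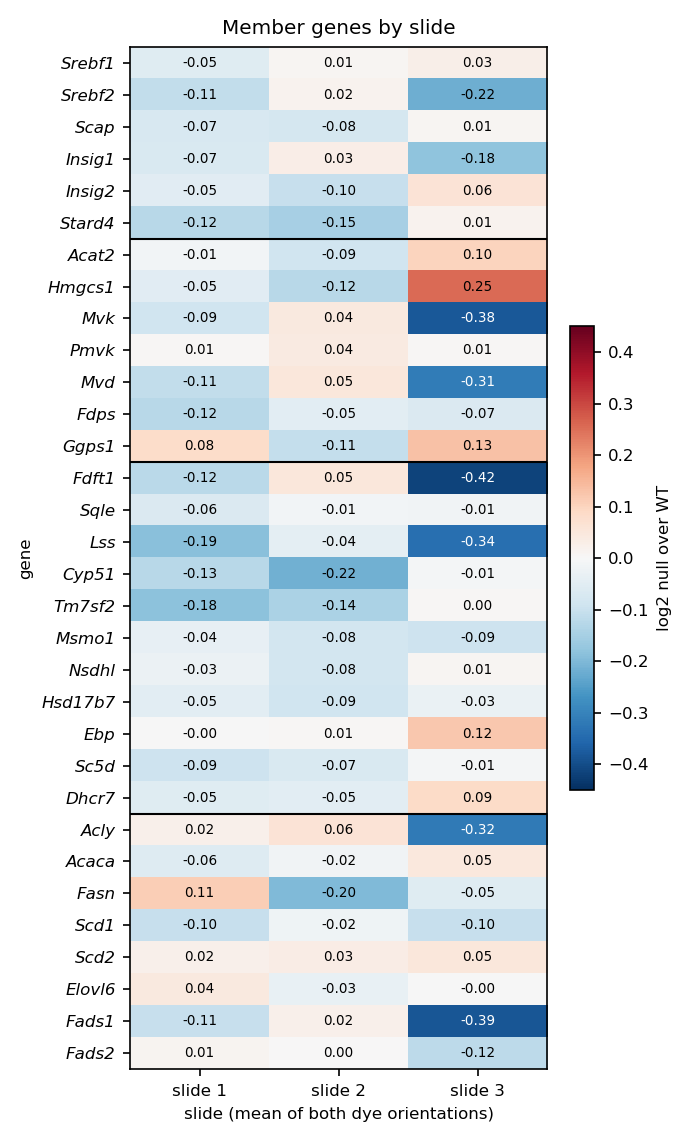
Log2 null over WT of the 32 tested synthesis genes (lines) on slides 1, 2 and 3 (columns), each the mean of both dye orientations, with blue for lower and red for higher in null. Values below -0.3 occur on slide 3 only, for Mvk, Mvd, Fdft1, Lss, Acly and Fads1, beside the highest value, Hmgcs1 at 0.25.

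Organs that also make or store lipid were checked by their markers. Of 6 matched liver markers, 3 were above background in every channel and *Ttr* and *Apoa1* were in none. Their summed intensity ranged from 2400 to 7136 in null and from 2368 to 6837 in WT, with log2 ratios of -0.02, 0.06 and 1.17 on slides 1, 2 and 3. On slide 3 *Afp* stood at 1.45 and *Trf* at 0.05. Of 6 adrenal cortex markers, 1 was above background in every channel, *Cyp21a1* was in none, and the sums ranged from 571 to 654 in null and from 579 to 626 in WT. Their log2 ratios were 0.07, -0.03 and -0.02. Of 6 adipocyte markers, *Adipoq*, *Lep* and *Ucp1* were above background in no channel, while *Fabp4* was in every channel. The sums ranged from 15883 to 37377 in null and from 13552 to 35556 in WT. Their log2 ratios were 0.27, 0.11 and 0.99 on the slides. *Fabp4* stood at 0.27, 0.12 and 1.01 on the slides and *Plin1* at -0.06, 0.09 and -0.21. *Cfd* was above background in 0 null and 1 WT channels. The adipocyte sums thus closely followed the single gene *Fabp4* and do not show whether adipocytes were present or differed. The part of liver cells and adipocytes in the members' values was not tested.

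The ratio of some members depended on which genotype carried which dye, at a share near that of all tested genes. The dye term passed at a limma adjusted p under 0.05 in 6 members (18.8%, against 15.7% of all tested genes): *Insig2*, *Ggps1*, *Sqle*, *Nsdhl*, *Sc5d* and *Elovl6*. In 11 members (34.4%, against 24.9%) all 3 null/WT values had one sign and all 3 WT/null values the other. *Srebf1* and *Scap* were among these 11, and *Lss* was not. The genotype estimates above are means over both orientations, in which a dye effect of equal size cancels. Under median centring the dye term passed in 31 members. The share of all tested genes was not computed for that setting, so this count is not read as a trait of the members.

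**Figure D3:**
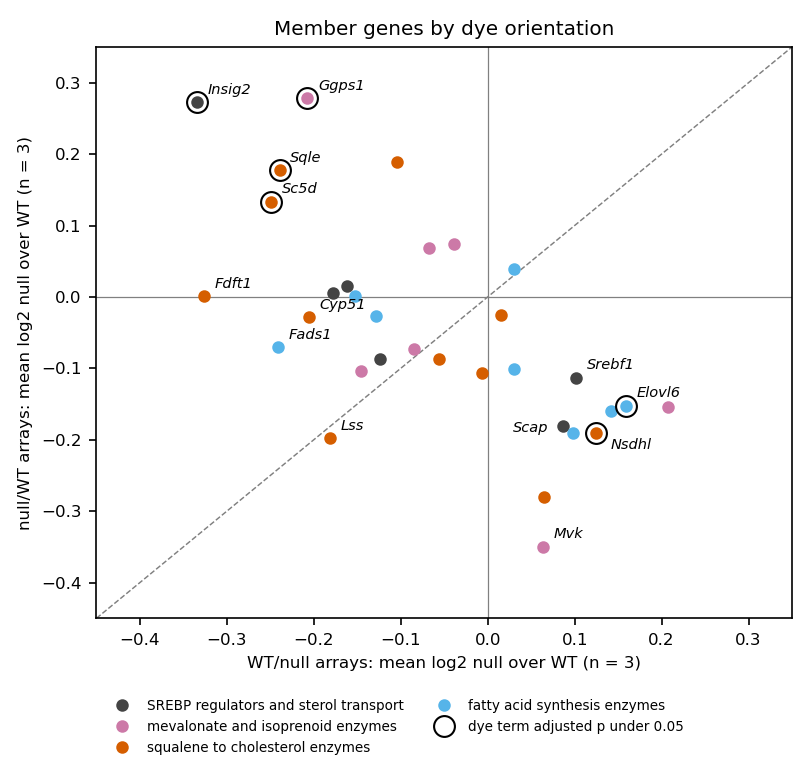
Mean log2 null over WT of each synthesis gene on the 3 WT/null replicates (x axis) and on the 3 null/WT replicates (y axis), coloured by role, with circles around the 6 genes whose dye term passed and a dashed line of equal values. Points in the upper left and lower right change sign with the dye, such as Insig2 and Elovl6, while Lss lies close to the line at -0.18 and -0.20.

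Other genes of lipid handling were set beside the members, and 0 of them passed the limma threshold in any of 4 lists. Genes of sterol uptake, storage and efflux were higher in 10 of 15 (median 0.05), and 10 of 15 lay above the all-gene median under median centring. At an unadjusted p under 0.05, 3 of these were higher (20%, against 5.19% of all tested genes) and 0 lower (against 2.59%). With the replicate block, 2 of the 15 had such a p in either direction, beside 442 of all 12647 tested genes. The list was chosen with earlier results of these data known, so these shares carry no test. *Abca1*, which encodes the exporter of cholesterol to apolipoproteins, gave 0.29, 0.07 and 0.02 on WT/null replicates 1, 2 and 3 and 0.54, 0.33 and 0.40 on null/WT replicates 1, 2 and 3. It was higher in 6 of 6 replicates, least so on WT/null replicates 2 and 3, with an estimate of 0.27 ± 0.05 (SE, n = 6, limma adjusted p = 0.258, and adjusted p = 0.904 with the replicate block). *Soat1*, which encodes the enzyme that esterifies cholesterol for storage, stood at 0.18 ± 0.05 (limma adjusted p = 0.612), but its other probes gave -0.08 and 0.09. *Apoe*, which encodes a lipid-carrying apolipoprotein, stood at 0.12 ± 0.04 (limma adjusted p = 0.648).

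Of 12 further genes of sterol synthesis and the SREBP machinery, 10 were tested, with 6 higher and 4 lower (median 0.01, and 8 of 10 above the all-gene median under median centring). *Pgrmc1* and *Acat1* both stood at 0.05. The dye term passed at a limma adjusted p under 0.05 in 6 of the 10 (60%, against 15.7% of all tested genes). *Pgrmc1* gave -0.11, -0.20 and -0.11 on WT/null replicates 1, 2 and 3 and 0.22, 0.23 and 0.25 on null/WT replicates, so its sign followed the dye orientation. *Mbtps2*, which encodes a protease that releases SREBP, was too dim to be tested.

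Of 18 further genes of fatty acid synthesis and elongation, 16 were tested, with 11 higher and 5 lower (median 0.04, and 10 of 16 above the all-gene median under median centring). *Elovl2*, an elongase gene, stood at 0.12 ± 0.05 but was higher in 3 of 6 replicates, all of them null/WT. *Mlxipl*, which encodes the carbohydrate-responsive factor ChREBP, stood at -0.09 and *Slc25a1*, which encodes the mitochondrial citrate carrier, at -0.10. Of 13 tested genes of fatty acid oxidation, 12 were higher and 1 lower (median 0.03), while 10 of 13 lay above the all-gene median under median centring and 5 of 13 were lower in the authors' values. The slides differed, with list medians of 0.01, -0.03 and 0.12 and 6, 8 and 3 of 13 genes lower on slides 1, 2 and 3. The proximal tubule marker sum was also highest on slide 3, and its part in these values was not tested. *Cpt1a*, which encodes the carnitine palmitoyltransferase of the outer mitochondrial membrane, stood at 0.13 ± 0.07, with its other probe at -0.06, *Acadl* at 0.07 and *Pdk4* at 0.10.

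**Figure D4:**
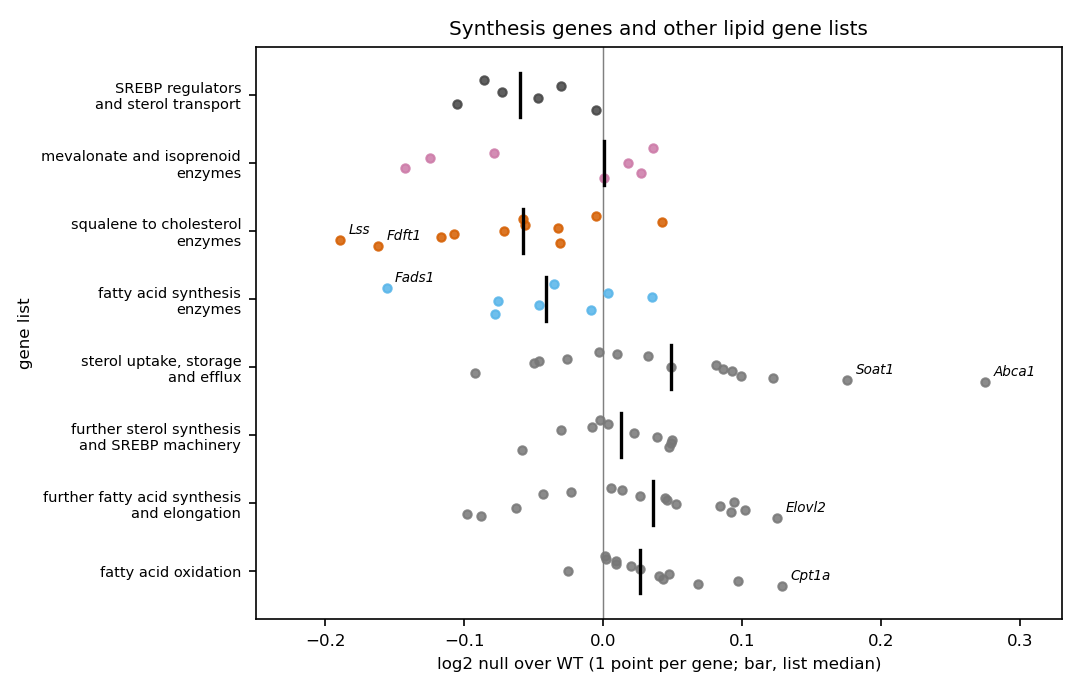
Log2 null over WT (x axis) of each tested gene of the 4 synthesis groups (coloured points) and of 4 other lipid lists (grey points), with a bar at each median. Medians run from -0.06 to 0.05, Abca1 is furthest to the right at 0.27 and Lss furthest to the left at -0.19; under median centring the all-gene median lies at 0.16 and all 4 synthesis medians lie above 0 but below it.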

How the data were processed

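Null and WT kidney RNA was measured on 12 two-colour Agilent arrays (6 replicates, each on 2 arrays). The spot and local background intensity values were deposited as median pixel brightness per dye, with no further normalization, per the file headers. The deposited files also held the scanner software's background-subtracted, dye-normalized intensity values. Per the file headers, the software was Agilent Feature Extraction 10.5.1.1. The submitters' processing notes give version 6.1. The authors' series table held log10 ratios. Set against the scanner's ratios turned to null over WT, its columns correlated at 0.998 to 0.999 with slopes of 1.00, which settled direction and scale. Its column medians ran from -0.0218 to 0.00645, the rule behind its blank entries is not known here, and 0 columns lacked a sample. Total RNA was labelled at 0.5 µg per reaction by direct incorporation, per the labels' protocols.

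Normexp (offset 50) removed background and loess within arrays normalized the log2 ratios, with control and outlier spots given weight 0. The 2 arrays of a replicate were averaged. A probe was tested where either genotype was well above background on 6 or more of 12 arrays (22979 of 41174). Probes were named by accession through a RefSeq gene table of GRCm38.p6, which gave 25097 a symbol. The array header names build mm9, so no probe coordinates are given. A gene is represented by its brightest tested probe. The fit of null over WT used limma 3.58.1 (R 4.3.3), with a dye term, over all tested probes, with Benjamini-Hochberg adjustment and a threshold of 0.05, and 95% intervals came from the same fit. The code was tested on simulated data.

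Samples with the same number lay on the same slide and deviated together (r = 0.587, 0.517 and 0.413 for numbers 1, 2 and 3), so a fit on the 3 pair means was run beside the main one. The number of replicates (6, each on 2 arrays) limits the precision. The design text calls the replicates biological, but the labels do not say whether both orientations of a number shared RNA extracts. Both orientations of a number deviated together, so the 6 values of the main fit were not independent, whether or not extracts were shared. The unpaired SEs and p-values are therefore too small in general and the intervals too narrow, though for some genes the block SE was the smaller. At an unadjusted limma p under 0.05 in either direction stood 984 of 12647 tested genes in the main fit and 442 with the replicate block. Replicate values are printed for the SREBP regulators and the 6 members with the smallest p, and for the other lipid lists the 3 genes with the smallest p are named, except an item that is not reported here. The members and lists were chosen with earlier results of these data known.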

Additional observations from a re-analysis of the deposited data

Results flagged for a closer look

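In 6 members (18.8%, beside 15.7% of all tested genes) the value differed between the dye orientations, by the dye term of the fit (limma adjusted p). *Insig2* stood at 0.27 on null/WT and -0.33 on WT/null replicates (adjusted p = 0.00691), *Ggps1* at 0.28 and -0.21 (0.0226), and *Sqle* at 0.18 and -0.24 (0.0163). *Sc5d* stood at 0.13 and -0.25 (0.0182). The order was opposite for *Nsdhl*, at -0.19 and 0.12 (0.0344), and *Elovl6*, at -0.15 and 0.16 (0.0337). Other probes did not all share this: the second *Insig2* probe had a dye term of 0.02, beside 0.30 for the first.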

How the results depend on the processing

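With p adjusted over the probes of each fit, 0 members passed the adjusted threshold in the main fit and in every alternative run. The count of all tested probes past it was 9, and 4 with the replicate block, 15 when the first of the arrays of WT/null replicate 3 was dropped (chosen after seeing the data) and 3 to 62 when 1 replicate or slide was left out. Members lower at an unadjusted p under 0.05 numbered 2, and 4 with the scanner's processed signals or the authors' table, 0 with median centring, 1 with the replicate block, 1 with no dye term and 0 to 6 when 1 replicate or slide was left out. The count higher at that p, by the brightest probes, was 0 in every alternative. Shares of all tested genes at that p were not computed for alternatives other than the replicate block. With median centring the median of all tested genes was 0.16, and the members' medians were 0.12 for all members, 0.12 for all cholesterol enzymes, 0.13 for regulators, 0.12 for mevalonate, 0.13 for squalene to cholesterol and 0.13 for fatty acid enzymes. Under it *Srebf1* stood at 0.21, *Srebf2* at 0.079, *Scap* at 0.16, *Insig1* at 0.083, *Insig2* at 0.15, *Fdft1* at 0.031, *Cyp51* at 0.040, *Tm7sf2* at 0.087 and *Fads1* at 0.034, while *Lss* stayed below 0. The mevalonate median was -0.10 with the processed signals and -0.10 with the authors' table. The dye term passed in 31 members with median centring, a setting for which the share of all tested genes was not computed. The cause of these shifts was not tested. When 1 replicate or slide was left out, *Srebf1* ranged from -0.022 to 0.018 (above 0 without either or both orientations of replicate 1) and *Insig2* from -0.078 to 0.0060 (above 0 without slide 2). *Srebf2* stood at 0.016 by its other probe. Of the values of the 10 genes described by replicate, 172 under alternatives kept their direction and side of the threshold and 14 changed sign. The replicate block changed no other call among the members. Of the 32 members, 30 were above background in every channel, and whether signal level limited the calls was not tested.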
